A study of Mus musculus with 2 samples.

Results

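The contractile genes of myoepithelial and smooth muscle cells were read in mouse mammary tumors to ask whether they held level between animals given GW9662 in the diet and animals on control chow. The set was the 10 genes Acta2, Actg2, Myh11, Tagln, Cnn1, Mylk, Myl9, Tpm1, Tpm2 and Oxtr, taken from a fixed list of names, among 12393 genes that the array names singly. Every probe set annotated to 1 of these genes was kept, which gave 19 of 22690 probe sets. A probe set is a group of short oligonucleotides that together read a part of a transcript. Female wild-type FVB mice, 5 weeks old at the start, received 15 mg medroxyprogesterone acetate under the skin and then 4 weekly doses of 1 mg DMBA, a carcinogen, by gavage in both groups. From the day after the last dose 1 group ate chow supplemented with 0.1% GW9662, an irreversible inhibitor of the nuclear receptor PPARγ, and the other ate the standard chow alone. Tumor RNA from 5 mice was combined in equal amounts within each group, and a single array was hybridized per pool. There were thus no replicates and no test between the diets, and mice, tumors and arrays cannot be told apart as sources of a difference.

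Myoepithelial cells form the basal layer around the ducts and alveoli of the mammary gland. They are epithelial cells that carry the contractile proteins of smooth muscle, and they squeeze milk out of the alveoli when oxytocin binds its receptor. Contraction starts when calcium and calmodulin activate the kinase encoded by Mylk, which phosphorylates the myosin light chain so that smooth muscle myosin can pull on filaments of actin and tropomyosin. The same genes are active in the muscle layer of blood vessels, in pericytes and in activated fibroblasts, so tumor tissue holds several possible sources of their RNA. The tumors bore the luminal epithelial markers of mammary tissue on both arrays. Keratin 8 (Krt8) had a signal of 9665 on the GW9662 array and 9496 on the control array, and keratin 18 (Krt18) had 9025 (GW9662) and 10018 (control). The basal markers Krt5 and Itga6 were also detected.

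Of the contractile genes that could be measured, 6 of 9 lay within 1.5-fold, against 6634 of 8009 measured genes over the array. The other 3, Cnn1, Myh11 and Mylk, were lower on the GW9662 array. A signal of 100 averaged over both arrays was set as the minimum for a gene to count as measured, and each gene was read at whichever of its probe sets was brightest on average. Of the 10 genes, 9 were measured and Oxtr was not. Of the 19 probe sets, 13 were measured and 6 were below 100 on both arrays. The threshold of the study's methods was a 3-fold difference where 1 of the arrays showed a signal of 300 or more. None of the 9 measured genes reached it, against 2.68% of 6053 genes on the array that were at least 3-fold lower and 0.215% that were at least 3-fold higher. At 2-fold the count was also 0 of 9, against 4.68% of genes lower and 1.02% higher. At 1.5-fold, 3 of 9 genes were lower and 0 were higher, against 9.8% lower and 6.41% higher over the 6053 genes. Counted by probe set, 4 of 13 were at least 1.5-fold lower, against 10.8% of 9242 probe sets, and 0 were at least 1.5-fold higher, against 6.86%. The median log2 ratio of GW9662 over control was -0.04 over the 9 genes and 0.03 over all 8009 measured genes. It was -0.04 over the 13 probe sets and 0.01 over 12835. The only spread these arrays hold is that between probe sets of the same gene, whose log2 ratios differed with an SD of 0.36 over 2639 genes. This spread contains no variation between mice or tumors. In pooled tissue, fewer cells of a type and less RNA per cell cannot be told apart.

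**Figure D1:**
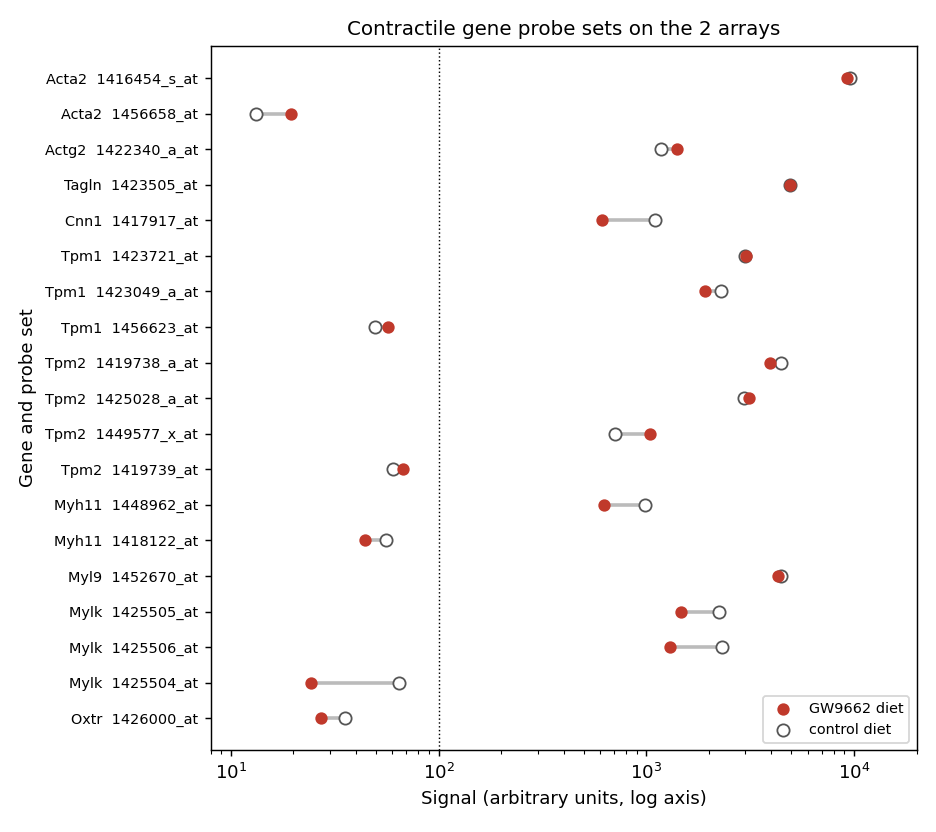
Signal of the 19 probe sets of the 10 contractile genes on a log axis, with the GW9662 diet array as filled red points and the control diet array as open points, and with a dotted line at the signal of 100. The points of Acta2, Tagln and Myl9 nearly coincide at their bright probe sets, while Cnn1, Myh11 and both bright Mylk probe sets lie to the left on the GW9662 array.

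Promoter sequence was set beside the signals because many smooth muscle genes are switched on by serum response factor, which binds a short DNA element called the CArG box. The RefSeq promoter table used here, of mouse build GRCm38.p6, spans 250 bases before to 50 bases after a start site and held 7 of the 10 genes. Actg2, Myh11 and Tagln were not among them. Each window rests on a single listed start site, and whether the tumors used that site was not tested. The Mylk window lies inside the gene, which begins at chr16:34745199, and other start sites were not searched. The 4 promoters below are shown because they belong to genes with unlike ratios, Acta2 and Myl9 with nearly equal signals on both arrays and Cnn1 and Mylk lower on the GW9662 array. They lie at chr19:34255324-34255623, minus strand (Acta2), chr2:156775214-156775513, plus strand (Myl9), chr9:22099003-22099302, plus strand (Cnn1) and chr16:34784700-34784999, plus strand (Mylk). Capitals mark each CArG box, defined as CC and GG on either side of 6 bases that are all A or T, and each CArG-like box with 1 G or C among the 6.
Acta2: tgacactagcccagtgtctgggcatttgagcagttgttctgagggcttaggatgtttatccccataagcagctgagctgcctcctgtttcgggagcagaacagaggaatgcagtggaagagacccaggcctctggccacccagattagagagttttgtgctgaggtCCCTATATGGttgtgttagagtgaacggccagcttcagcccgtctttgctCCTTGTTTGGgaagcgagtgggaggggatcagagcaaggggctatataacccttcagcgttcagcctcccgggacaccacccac
Myl9: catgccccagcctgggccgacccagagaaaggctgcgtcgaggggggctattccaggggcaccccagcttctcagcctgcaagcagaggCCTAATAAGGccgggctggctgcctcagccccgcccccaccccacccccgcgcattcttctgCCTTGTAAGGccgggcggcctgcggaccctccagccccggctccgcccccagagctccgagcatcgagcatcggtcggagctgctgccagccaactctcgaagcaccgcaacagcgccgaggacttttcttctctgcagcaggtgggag
Cnn1: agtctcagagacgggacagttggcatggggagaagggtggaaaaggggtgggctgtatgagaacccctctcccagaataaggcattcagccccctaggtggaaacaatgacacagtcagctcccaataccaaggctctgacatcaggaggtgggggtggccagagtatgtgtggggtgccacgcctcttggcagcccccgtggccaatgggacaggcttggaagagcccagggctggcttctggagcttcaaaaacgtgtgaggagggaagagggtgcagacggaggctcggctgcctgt
Mylk: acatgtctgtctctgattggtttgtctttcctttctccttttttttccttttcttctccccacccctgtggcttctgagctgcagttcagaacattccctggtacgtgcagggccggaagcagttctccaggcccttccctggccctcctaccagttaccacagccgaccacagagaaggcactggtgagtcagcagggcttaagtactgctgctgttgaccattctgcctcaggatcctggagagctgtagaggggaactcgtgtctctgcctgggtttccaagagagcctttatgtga
Myl9 held the only full CArG box of the 7 promoters, CCTAATAAGG at -161 to -152 from the start site, and a CArG-like box, CCTTGTAAGG, at -99 to -90. Acta2 held a pair of CArG-like boxes, CCCTATATGG at -84 to -75 and CCTTGTTTGG at -34 to -25. A CArG box was found in 1.63% of 32851 promoters in the table and a CArG or CArG-like box in 9.98%. The box reads the same on both strands, so that 1 search covered both. No match was found in the windows of Cnn1, Mylk, Tpm1, Tpm2 and Oxtr, which says only that these letters are not in those windows. Tpm1 was also near level at its brightest probe set, with a log2 ratio of 0.02. The 4 printed promoters were chosen by ratio, so they cannot show a link between boxes and ratios, and none was tested. The idealized element bound by PPARγ with its partner RXR is 2 copies of AGGTCA with 1 base between them. On either strand it was in none of the 7 windows and in 0.0396% of all promoters. An element that rare would hardly be met in 7 windows, so its absence says nothing about these genes. Binding of PPARγ was not tested.

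The smooth muscle actins differed little between the diets. Acta2 encodes alpha smooth muscle actin, the usual marker of myoepithelial cells and of activated fibroblasts. Its bright probe set (1416454_s_at) had a signal of 9275 on the GW9662 array and 9559 on the control array, 1.03-fold lower. The highest signals on the arrays were 14841 on the GW9662 array and 14438 on the control array. The suffix s marks a probe set whose oligonucleotides may match more than 1 transcript, and which other actins it reads was not tested. The other Acta2 probe set (1456658_at) had 19.5 (GW9662) and 13.2 (control), no brighter than some of the 33 probe sets of olfactory receptors, which reached at most 25.8 on the GW9662 array and 25.2 on the control array and serve as a measure of background. Actg2 encodes gamma smooth muscle actin, the main actin of visceral muscle. It was the measured gene with the highest ratio, 1405 on the GW9662 array and 1181 on the control array, 1.19-fold higher. Its log2 ratio of 0.25 was smaller than the SD between probe sets, and 72.6% of measured genes had a lower ratio.

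The actin-binding proteins transgelin and calponin, which are widely used together as smooth muscle markers, stood apart from each other. Tagln encodes transgelin, also called SM22 alpha. Its only probe set (1423505_at) had 4895.4 on the GW9662 array and 4895.0 on the control array, a log2 ratio of 0.00. Cnn1 encodes calponin, which restrains the myosin motor and marks differentiated smooth muscle and myoepithelium. Its only probe set (1417917_at) had 611 on the GW9662 array and 1100 on the control array, 1.8-fold lower. The log2 ratio of -0.85 was the lowest among the measured genes of the set, and 6.11% of all measured genes had a lower one. With 1 probe set, no second reading of Cnn1 was at hand.

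The tropomyosins lie along the actin filament and control access of myosin to it. Their probe sets disagreed with each other, but no measured probe set passed 1.5-fold between the diets. Both genes make muscle and non-muscle forms through alternative exons and are also used in skeletal muscle. Tpm1 had 3036.5 on the GW9662 array and 3003 on the control array at 1423721_at. It had 1911 (GW9662) and 2284 (control) at 1423049_a_at, 1.2-fold lower, and a dim probe set (1456623_at) with 57.1 (GW9662) and 49.5 (control). The suffix a marks a probe set that reads alternative transcripts of its gene. Tpm2 had 3926 on the GW9662 array and 4459 on the control array at 1419738_a_at, a log2 ratio of -0.18. At 1425028_a_at it had 3140.5 (GW9662) and 2955 (control), a log2 ratio of 0.09. At 1449577_x_at it had 1047 (GW9662) and 709 (control), a log2 ratio of 0.56 or 1.48-fold higher, just inside the limit of 1.5. The suffix x marks oligonucleotides that may cross-hybridize to other sequences. The last Tpm2 probe set (1419739_at) was dim, with 67.8 (GW9662) and 60.6 (control). The measured Tpm2 probe sets thus pointed in both directions, and no direction was read for the gene.

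The myosin genes split as the calponin and transgelin pair did. Myl9 encodes the regulatory light chain that the Mylk kinase phosphorylates. It had 4323 on the GW9662 array and 4449 on the control array at 1452670_at, 1.03-fold lower and as close to level as Acta2. Myh11 encodes the smooth muscle myosin heavy chain, a marker of mature smooth muscle. Its bright probe set (1448962_at) had 624 on the GW9662 array and 983 on the control array, 1.57-fold lower, with 9.05% of measured genes at a lower ratio. Its second probe set (1418122_at) was below 100 on both arrays, with 44.2 (GW9662) and 56.1 (control), so that the lower value rests on 1 reading.

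Mylk, the myosin light chain kinase, was the only gene of the set that was lower at more than 1 measured probe set. At 1425505_at the signal was 1477 on the GW9662 array and 2240 on the control array, 1.52-fold lower. At 1425506_at it was 1296.5 (GW9662) and 2322 (control), 1.79-fold lower. These log2 ratios, -0.60 and -0.84, had 11.3% and 6.59% of measured probe sets below them. The remaining probe set, 1425504_at, had 24.4 (GW9662) and 64.3 (control), below 100 on both arrays. The annotation gives the same source sequence for all 3, so that they are not independent samples of the gene. Mylk makes a long form in non-muscle cells and a short form in smooth muscle, and the form read by each probe set was not analysed here.

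Oxtr, the oxytocin receptor, could not be compared. Its single probe set (1426000_at) had 27.2 on the GW9662 array and 35.6 on the control array, just above the brightest olfactory receptor probe set on each array. No fold was given, since both signals were under 100.

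**Figure D2:**
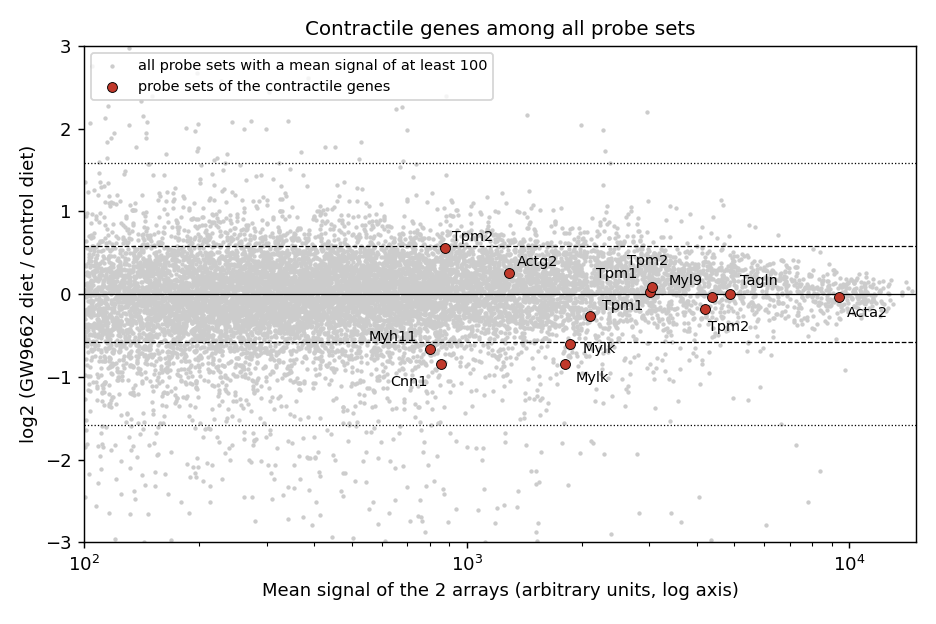
Log2 ratio of GW9662 over control against the mean signal of both arrays, on a log axis, for 12835 measured probe sets in gray and the 13 measured probe sets of the contractile genes in red. Dashed lines mark 1.5-fold and dotted lines 3-fold, and 102 probe sets lie beyond the vertical range. Cnn1, Myh11 and the pair of Mylk points lie below the lower dashed line, and no contractile gene probe set lies above the upper one.

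The cytoplasmic relatives of these genes, which most cells use for shape and movement, were level as a group. Of 11 measured, 10 lay within 1.5-fold, against 6634 of 8009 measured genes over the array, and the median log2 ratio was 0.04. Beta-actin (Actb) had 8980 on the GW9662 array and 9738 on the control array, and gamma-actin (Actg1) had 10984.5 (GW9662) and 11095 (control). The calponin relative Cnn3 had 8835 (GW9662) and 8111 (control) at its brightest probe set, where Cnn1 was 1.8-fold lower. The log2 ratios of the measured Cnn3 probe sets ran from -0.25 to 0.48. The transgelin relative Tagln2 had 4739 on the GW9662 array and 2303 on the control array, 2.06-fold higher, where Tagln was level. That was its brightest probe set, with a log2 ratio of 1.04, and the other had 0.47. The striated muscle relatives Acta1, skeletal actin (285 GW9662, 2488 control), and Mylpf, a fast fiber light chain (197 GW9662, 1104 control), were 8.74-fold and 5.62-fold lower. Of the measured relatives, only these striated forms passed 3-fold.

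Other genes of the smooth muscle cytoskeleton gave the same median as the contractile set, -0.04, over 19 measured of 26 listed. Of these, 12 had a lower and 7 a higher signal on the GW9662 array, against 3774 and 4234 of 8009 measured genes. Among those reaching 300 on an array, 4 of 16 were at least 1.5-fold lower and 0 were at least 1.5-fold higher, against the 9.8% and 6.41% over all genes. Those lower were the LIM-domain proteins Fhl1 (149 on the GW9662 array and 1024 on the control array) and Pdlim3 (268 GW9662, 926 control), the small heat shock protein Hspb8 (190.5 GW9662, 542 control), and smoothelin, Smtn (240 GW9662, 383 control). Fhl1, Pdlim3 and Hspb8 are also abundant in skeletal and heart muscle, whereas smoothelin marks contractile smooth muscle. Smoothelin was named after its values were seen. Caldesmon (Cald1), which binds actin and tropomyosin, had 5676 (GW9662) and 4577 (control) at its brightest probe set, but the log2 ratios of its measured probe sets ran from -0.81 to 0.56. Csrp1, a LIM protein of smooth muscle, had 3008 (GW9662) and 3717 (control), and the catalytic subunit of myosin phosphatase, Ppp1cb, had 4140 (GW9662) and 4161 (control).

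Genes that control transcription of the contractile set lay mostly within 1.5-fold. Of 15 listed, 9 were measured with a median log2 ratio of 0.09, and 8 of the 9 lay within 1.5-fold, against 6634 of 8009 measured genes. The other, Tead3, had 138 (GW9662) and 70.8 (control), a log2 ratio of 0.97 with the control signal below 100. Of the 7 that reached 300 on an array, 0 were at least 1.5-fold lower or higher, against 9.8% and 6.41% over all genes. Srf, the serum response factor, had 641 on the GW9662 array and 480 on the control array at its brightest probe set, 1.34-fold higher. Its other probe set had a log2 ratio of -0.07. Klf4 had 989 (GW9662) and 928 (control) at its brightest probe set, but the log2 ratios of its measured probe sets ran from -0.88 to 0.09. Notch3, a receptor of vascular smooth muscle, had 974 (GW9662) and 664 (control), and Rhoa, the GTPase that raises actin polymerization, had 3256 (GW9662) and 3836 (control). Of the genes between the oxytocin receptor and calcium release, 9 were measured and their median was 0.00. The calcium pump Atp2a2 had 3692 (GW9662) and 3650 (control). Rgs2, which shuts off the G protein that the oxytocin receptor uses, was 2.2-fold higher on the GW9662 array (6346.5 GW9662, 2889 control), and its measured probe sets had log2 ratios of 1.00 and 1.14. The calcium entry genes Orai1 (265 GW9662, 426 control) and Stim1 (204 GW9662, 322 control) were 1.61-fold and 1.58-fold lower at their brightest probe sets and nearer level at their others.

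**Figure D3:**
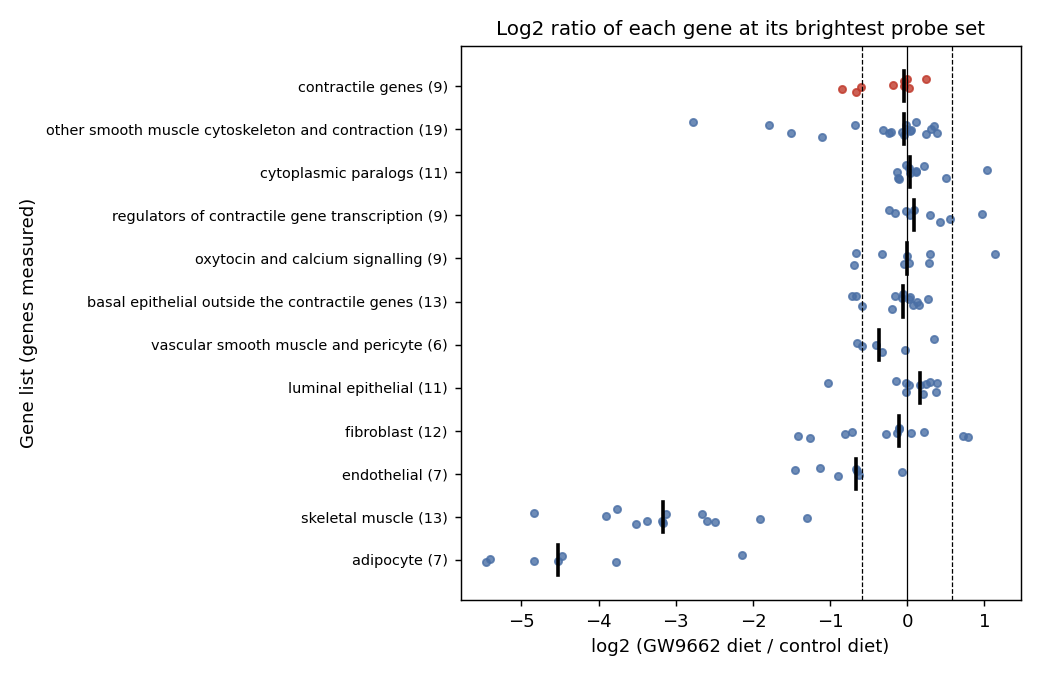
Log2 ratio of GW9662 over control for each measured gene at its brightest probe set, by gene list, with the contractile genes in red in the top row. Black bars mark the list medians and dashed lines mark 1.5-fold. The contractile genes have a median of -0.04, whereas skeletal muscle and adipocyte markers have medians of -3.17 and -4.53.

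Markers of cells that can carry contractile genes differed less between the diets than those of fat and skeletal muscle. Basal epithelial markers outside the contractile set had a median log2 ratio of -0.05 over 13 genes and summed signals of 12882.5 on the GW9662 array and 14063 on the control array. Within them the keratins Krt5 (793 GW9662, 1256 control) and Krt14 (619.5 GW9662, 1022 control), which together form the basal cell filament network, were 1.58-fold and 1.65-fold lower. Snai2, a transcription factor of basal cells, was 1.5-fold lower (299.0 GW9662, 449 control). Id4 (3312 GW9662, 3256 control), Cxcl14 (1687 GW9662, 1751 control) and the basal integrin Itga6 (2275 GW9662, 2607 control) were nearer level. Vascular smooth muscle and pericyte markers had a median of -0.37 over 6 genes, with summed signals of 5871 (GW9662) and 5969 (control) over 9 genes. At a mean signal of at least 300 their median was -0.03. Of the 6 measured, 5 were lower on the GW9662 array, against 3774 of 8009 measured genes over the array. The brightest, Rgs5, had 3015 (GW9662) and 3087.5 (control), but the log2 ratios of its measured probe sets ran from -0.93 to 0.04. Pdgfrb, the only measured marker that was higher, had 1841 (GW9662) and 1444 (control). Its measured probe sets had log2 ratios from -0.06 to 0.35. The adhesion protein Mcam had 458 (GW9662) and 718 (control). Endothelial markers had summed signals of 2479 (GW9662) and 3993 (control), and all 7 measured were lower. Fibroblast markers had 35081.5 (GW9662) and 43184 (control) with a median of -0.11, and their members went both ways. Of 12, 4 were at least 1.5-fold lower and 2 at least 1.5-fold higher, against 9.8% and 6.41% over all genes. Fap, a protease of activated fibroblasts, had 259 (GW9662) and 691 (control), and the matrix proteoglycans Dcn and Lum were 2.4-fold and 1.74-fold lower. The collagen genes Col1a2 and Col3a1 were 1.09-fold and 1.21-fold lower, whereas the collagen gene Col1a1 was 1.65-fold higher and Tnc was 1.73-fold higher. Col1a1 and Tnc were named after their values were seen. Luminal epithelial markers had 55242 (GW9662) and 53937 (control) with a median of 0.17. Of 11 measured, 4 were lower and 7 higher, against 3774 and 4234 of 8009 over the array. Elf5 was the exception in size, 2.03-fold lower (2040 GW9662, 4138 control). Skeletal muscle markers had 1645 (GW9662) and 13268 (control), with all 13 measured lower, and adipocyte markers 3867 (GW9662) and 33005 (control), with all 7 lower. None of these markers was at 0 on either array at its brightest probe set, and the part of each cell type in the values of Cnn1, Myh11, Mylk, Tpm1 and Tpm2 was not tested. Without Tpm1, Tpm2 and Mylk, which are also expressed outside smooth muscle, the median of the remaining 6 measured contractile genes was again -0.04. These 6 are not confined to smooth muscle either, so their median is not a reading of smooth muscle alone.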

How the data were processed

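Tumor RNA pooled from 5 mice per diet was hybridized to 1 Affymetrix mouse array per diet. Per the paper's methods, the authors generated raw data with GeneChip Operating Software, and they deposited a linear signal intensity per probe set. The sources used here do not give how probe pairs were combined or scaled, or the detection calls. Both arrays had a 2% trimmed mean of 500.2, the median signal was 145.7 on the GW9662 array and 159.9 on the control array, and no scaling was added. The 3 control signals of 0 were read as 0.1. The number of arrays limits the precision.

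Gene names came from the platform annotation, with symbols updated by gene identifier to RefSeq names of GRCm38.p6. A single gene was named for 20380, several for 691 and none here for 1555, and 64 were controls. The 3' over 5' signal ratios were 0.815 and 0.828 for Gapdh on the GW9662 and control arrays, and 1.36 and 1.35 for beta-actin.

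The 10 genes and all gene lists were chosen with earlier results of these data known. From each other list, up to 3 genes by signal and 3 by log2 ratio were named, apart from those said to be named after their values were seen. A fold against a signal below 100 was read against 100. Alternatives covered centring, quantile normalization, low signals, signal minimums, folds and the choice of probe set. The calling rule was run on simulated data with known changes as a check of the code, which says nothing about noise between mice, tumors or arrays. Python 3.11.15, numpy 2.4.6, pandas 2.3.3, scipy 1.17.1 and matplotlib 3.10.9 were used.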

Additional observations from a re-analysis of the deposited data

How the results depend on the processing

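At 1.5-fold in place of 3-fold, 3 contractile genes were lower in place of 0, and 0 were higher at either fold. These 3 were Cnn1, Myh11 and Mylk, and the count was 3 under each alternative tried except the median over all probe sets, where it was 2 because the dim second probe set brought Myh11 to a log2 ratio of -0.50. The median over the contractile genes ran from -0.11 (no filter on dim genes) to 0.00 (median over all probe sets). Among the genes near level, Acta2 and the tropomyosins changed sign with the setting. Acta2 had -0.04 at its brightest probe set and 0.26 as the median over all its probe sets, which includes the dim probe set. Tpm2 had -0.18 at its brightest probe set, 0.16 as the mean of its measured probe sets and -0.24 after quantile normalization, and Tpm1 had 0.02, -0.12 and -0.05. The median of skeletal muscle markers was -3.17, against -2.59 with signals below 100 set to 100. That of vascular smooth muscle and pericyte markers was -0.37, against -0.03 at a mean signal of at least 300. Signals under 100, as for Oxtr and the dim probe sets, have no order and moved to 0.00 with that floor. With 1 array per diet no replicate could be left out. No paired analysis was possible because each diet had 1 array and no test was run.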

Other observations

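The array also carries control probe sets for 18S ribosomal RNA. They were in no gene list and entered only the values over all probe sets. Their signals were 794, 1251 and 560 on the GW9662 array and 2755, 6872 and 4195 on the control array, 3.47-fold, 5.49-fold and 7.49-fold lower on the GW9662 array. Over the same arrays 18 hybridization control probe sets had a median log2 ratio of -0.16.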
